A study of Mus musculus with 6 samples.

Results

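BAFF, APRIL and RANKL are ligands of the TNF superfamily, and their 3 ligand genes and 4 receptor genes were examined here in mouse mesenteric lymph nodes. The ligand genes are Tnfsf13b (BAFF), Tnfsf13 (APRIL) and Tnfsf11 (RANKL). The receptor genes are Tnfrsf13c (BAFF receptor), Tnfrsf13b (TACI), Tnfrsf17 (BCMA) and Tnfrsf11a (RANK). They were chosen by name, and a probe was given to a gene when its accession belonged to that gene in RefSeq. Of these 7 genes, 5 had a probe among 37487 genes on the array, with 6 probes among 41006. Tnfsf13 and Tnfrsf13b matched no probe by this rule and are not analysed here.

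The study compared naive adult mice of 2 knockout genotypes on 6 two-colour arrays, 3 per genotype. By the series title, the B-TNF KO samples (B_TNF_KO below) came from mice without TNF in B cells. The TB-TNF KO double samples (TB_TNF_KO) came from mice without TNF in T cells and in B cells. TNF is therefore missing from B cells in both groups, no wild-type sample was analysed here, and the promoter or Cre line behind the deletion is not given in the sources used here. Each sample was RNA from nodes pooled from 3 mice, labelled with Cy3, and every array also carried Cy5-labelled RNA pooled from 11 mouse cell lines, the reference. All pools are labelled male except TB_TNF_KO replicate 2.

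BAFF is a survival factor for mature B cells, made mainly by stromal and myeloid cells. It binds the BAFF receptor, which sends most of that survival signal, and also TACI and BCMA, which it shares with APRIL. BCMA is known from plasma cells, where it supports survival. RANKL is made by lymph node stromal cells, by innate lymphoid cells and by activated T cells, and with its receptor RANK it is needed for lymph nodes to form. Receptors of this family recruit TRAF adaptors and release the kinase NIK, which activates the noncanonical NF-kB pathway, and osteoprotegerin is the soluble decoy that binds RANKL.

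The sequences below are of the probes that give all the values that follow, so that a reader can see which piece of each transcript was read. Sequences are from the deposited files, 5′ to 3′, and of 4 of the 60-base probes, whose place in the transcript is not known here, the first 30 bases are shown. In the dimmer Tnfsf11 probe the capitals mark a stop codon that closes an otherwise open first frame. The first frame of the Tnfrsf11a probe is open throughout.
Tnfsf13b, first 30 bases: gaaagccgtcagcgaaagttttctcgtgac
Tnfrsf13c, first 30 bases: ataaaatggactaacacaggcactatgagt
Tnfrsf17, first 30 bases: tagataatgagcttcctaactggtgtgaag
Tnfsf11, brighter probe, first 30 bases: tgcaaagaaatgatagtgtgaagggttaag
Tnfsf11, dimmer probe: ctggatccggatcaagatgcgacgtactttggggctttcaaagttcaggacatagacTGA
Tnfrsf11a: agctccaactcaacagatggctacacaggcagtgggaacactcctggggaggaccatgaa
The brighter Tnfsf11 probe had a stop in all of its frames, so the 2 Tnfsf11 probes read different pieces of the transcript. All 6 probes were well above background in both channels on all 6 arrays, and none was saturated. A probe's brightness depends on its sequence, so no probe's level is set against another probe's below.

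Array medians of background-subtracted sample intensity were 158 to 203 for B_TNF_KO and 143 to 166 for TB_TNF_KO. Reference medians were 280 to 282 and 315 to 362, with no overlap of the groups. TB_TNF_KO arrays 1 and 2 differed from each other no more in the sample channel than in the shared reference (ratio of the SDs 0.952, against 1.05 to 1.59 for the other 14 pairs of arrays). They differed by less than the technical noise and were counted as 1 sample, which left 3 samples against 2. The Y-linked gene Eif2s3y had a log2 ratio of -2.81 and -2.84 on those 2 arrays and 0.59 to 1.83 on the others, although replicate 1 is labelled male. Exocrine pancreas transcripts were high on replicates 1 and 2 of each group (median log2 ratio of the list 2.94 to 4.42) and near 0 on both replicates 3. The file headers date the feature extraction of each genotype to a day of its own, so day and genotype cannot be told apart.

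Values below are log2 ratios of sample over reference, and differences are TB_TNF_KO minus B_TNF_KO with the standard error (SE) of the limma model. A probe passed the test at a Benjamini-Hochberg adjusted p under 0.05 over all 40792 probes tested. None of the 6 ligand and receptor probes passed in limma, and 3 had an unadjusted p under 0.05, all of them lower in TB_TNF_KO. Among all probes, 0.0147% passed with a lower value, and 11.1% had an unadjusted p under 0.05 with a lower value. The same 3 probes, of Tnfrsf13c, Tnfrsf17 and the brighter Tnfsf11 probe, had groups that did not overlap, which was so, with lower values in TB_TNF_KO, for 16.9% of all probes. With the 6 arrays counted separately all 3 passed, against 4.55% of all probes lower in that fit. That fit takes the near-identical arrays 1 and 2 as separate samples, which makes its p-values too small if they carried the same RNA.

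**Figure D1:**
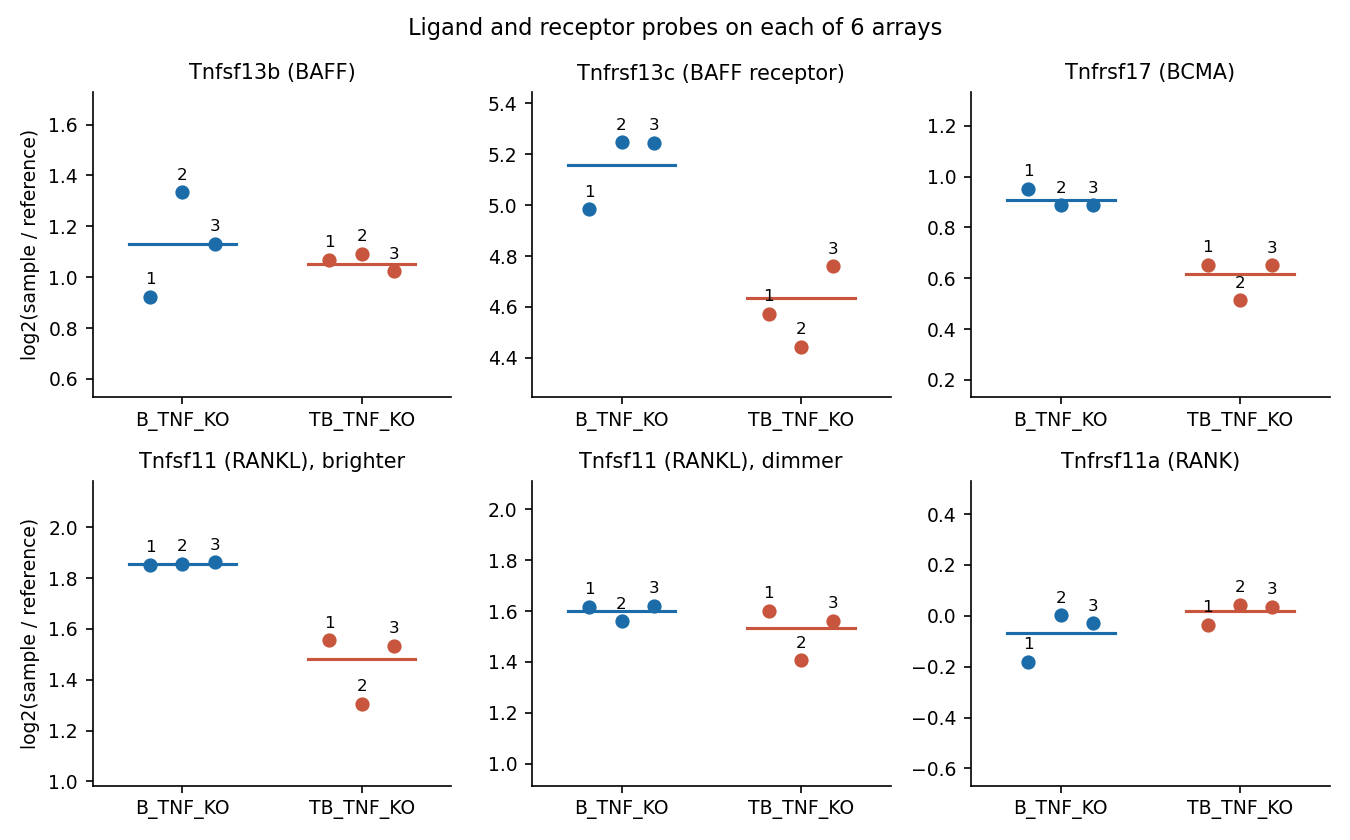
Each panel plots the log2 ratio of sample over reference (vertical axis, with the same span in each panel) on the 6 arrays, with replicate numbers beside the points. Lines are group means, of 3 samples in B_TNF_KO and 2 in TB_TNF_KO after arrays 1 and 2 were averaged. For Tnfrsf13c, Tnfrsf17 and the brighter Tnfsf11 probe every TB_TNF_KO point lies below every B_TNF_KO point, and in the other 3 panels the groups overlap.

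For the ligand BAFF the genotypes overlapped. The Tnfsf13b log2 ratio was 0.92, 1.33 and 1.13 on B_TNF_KO arrays 1 to 3, and 1.07, 1.09 and 1.02 on TB_TNF_KO arrays 1 to 3. All 3 TB_TNF_KO values lay inside the B_TNF_KO range, which was the wider one. The means were 1.13 ± 0.21 (SD, n = 3) and 1.05 ± 0.040 (SD, n = 2). The difference was -0.08 (SE 0.12, limma adjusted p 0.81), with a 95% confidence interval from -0.36 to 0.21. A change of Tnfsf13b inside that interval was not detectable with 5 samples. In the sample channel alone the difference was -0.09 (SE 0.11).

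Tnfrsf13c, the receptor through which BAFF keeps mature B cells alive, had the lowest difference of the 6 probes. Its log2 ratio was 4.98, 5.25 and 5.25 on the B_TNF_KO arrays and 4.57, 4.44 and 4.76 on the TB_TNF_KO arrays. The lowest B_TNF_KO value was above the highest TB_TNF_KO value, and TB_TNF_KO replicate 3, the array without pancreas transcripts, lay nearest to the other group. The means were 5.16 ± 0.15 (SD, n = 3) and 4.63 ± 0.18 (SD, n = 2). The difference was -0.53 (SE 0.11, 95% confidence interval -0.80 to -0.25), a level 1.44-fold lower in TB_TNF_KO, with an unadjusted p of 0.0032 and an adjusted p of 0.097 in limma. Only 0.4% of all probes had a lower difference. The adjusted p was 0.024 with the 6 arrays counted separately and 0.021 with the replicate number as a block, a fit in which 6.2% of all probes were called lower. Both fits count TB_TNF_KO arrays 1 and 2 as separate samples. The limma adjusted p was 0.19 without background subtraction and 0.28 with an intensity trend.

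After normalisation between arrays, both channels of the Tnfrsf13c probe had a lower mean in TB_TNF_KO. Its background-subtracted sample intensity was 3667, 3461 and 4908 on the B_TNF_KO arrays and 1893, 1668 and 2749 on the TB_TNF_KO arrays. After normalisation between arrays the sample channel alone differed by -0.40 (SE 0.10, limma adjusted p 0.093), and the groups again did not overlap. The reference channel of the same probe differed by -0.17 (SE 0.078), with overlap between the groups. Its background-subtracted reference intensity also overlapped, at 151.5, 128.1 and 148.5 on the B_TNF_KO arrays and 139, 148 and 145.3 on the TB_TNF_KO arrays. Groups that did not overlap in the sample channel, with lower values in TB_TNF_KO, were found for 17.4% of all probes.

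Tnfrsf13c is a B cell gene, so the level of B cell transcripts stands beside its value. Over all genes tested, with 1 probe each, 11.2% were lower and 4.98% higher at an unadjusted p under 0.05 in limma. These shares stand beside every list below. Of 13 B cell marker genes measured, 5 were lower and 1 higher at an unadjusted p under 0.05, and none passed the adjusted test in limma. The lower ones with the smallest p were the kinase Blk at -0.51, the B cell receptor chain Cd79a at -0.42 and the Fc receptor-like gene Fcrl1 at -0.38, whereas Ly86 was at 0.16. Second probes gave -0.09 for Blk and -0.31 for Cd79a. Summed over the list, sample intensity overlapped between B_TNF_KO (47560 to 48880) and TB_TNF_KO (45770 to 54250), and no marker was at background. The list's median log2 ratio was 2.76 to 2.83 on the B_TNF_KO arrays and 2.10 to 2.44 on the TB_TNF_KO arrays. On every array that median was the value of the brighter Blk probe, so it describes Blk alone. The median of the differences of the 13 genes was -0.10 in ratio and -0.06 in the sample channel alone. Over all genes tested the median difference in ratio was -0.01. Lower values in TB_TNF_KO without overlap were found for 7 of the 13 genes and higher ones for 1, against 6349 and 3961 of all 37295 genes. Ms4a1 (CD20) differed by 0.03, Cd79b by 0.05 and Pax5 by -0.08, and the groups did not overlap for Pax5. These 3 markers, named after their values were seen, had an unadjusted p above 0.05 in limma. Their second probes were at 0.12, 0.03 and 0.07. In whole nodes, fewer cells of a type and less RNA per cell cannot be told apart, and the part of B cell number in the Tnfrsf13c value was not tested.

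Tnfrsf17, the BCMA receptor of plasma cells, had log2 ratios of 0.95, 0.89 and 0.89 on the B_TNF_KO arrays and 0.65, 0.51 and 0.65 on the TB_TNF_KO arrays. The values were close within each group, and the groups lay apart. The means were 0.91 ± 0.037 (SD, n = 3) and 0.62 ± 0.048 (SD, n = 2). The difference was -0.29 (SE 0.048, 95% confidence interval -0.41 to -0.17), 1.22-fold lower in TB_TNF_KO, with an unadjusted p of 0.00089 and an adjusted p of 0.064 in limma. A lower difference was found for 3.61% of all probes. Its adjusted p was 0.021 in the fit of 6 arrays and 0.022 with the replicate block. In limma it was 0.11 without background subtraction and 0.083 with an intensity trend.

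The Tnfrsf17 difference was as large in the sample channel alone, at -0.31 (SE 0.062, limma adjusted p 0.061), with groups that did not overlap. Its sample intensity was 283, 242 and 315 on the B_TNF_KO arrays and 180, 161 and 204 on the TB_TNF_KO arrays. The reference channel differed by -0.08 and did not overlap either. Without background subtraction the difference in ratio was -0.16, which was 1.8 times smaller and still lower in TB_TNF_KO.

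The plasma cell genes had values on both sides of 0. Of 9 genes measured, Tnfrsf17 included, 2 were lower and 1 higher at an unadjusted p under 0.05 and none passed in limma, with a median difference of -0.005 against -0.01 over all genes tested. Prdm1 (Blimp-1) and Xbp1, the transcription factors of plasma cell differentiation, differed by -0.001 and -0.005, and both were named after their values were seen. A second Prdm1 probe was at -0.16, with an unadjusted p of 0.047 in limma and groups that did not overlap. The surface receptor Slamf7 was at 0.42 with 1 B_TNF_KO spot left out as an outlier, the elongation factor Ell2 at -0.16 and the degradation factor Derl3 at 0.23 with a second probe at -0.03. Their summed sample intensity overlapped between B_TNF_KO (9245 to 10620) and TB_TNF_KO (9418 to 10530).

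Tnfsf11, the RANKL gene, gave different values with its 2 probes. On the brighter probe the log2 ratio was 1.85, 1.86 and 1.86 on the B_TNF_KO arrays and 1.56, 1.31 and 1.53 on the TB_TNF_KO arrays. On the dimmer probe, which ends in the stop codon shown above, it was 1.62, 1.56 and 1.62 against 1.60, 1.41 and 1.56. The groups lay apart on the brighter probe and overlapped on the dimmer one.

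For the brighter Tnfsf11 probe the means were 1.86 ± 0.0049 (SD, n = 3) and 1.48 ± 0.073 (SD, n = 2). The difference was -0.38 (SE 0.0485, 95% confidence interval -0.49 to -0.26), 1.30-fold lower in TB_TNF_KO, with an unadjusted p of 0.00024 and an adjusted p of 0.055 in limma. The adjusted p was 0.024 with 6 arrays and 0.026 with the replicate block. In limma it was 0.35 without background subtraction and 0.087 with an intensity trend. The dimmer probe differed by -0.07 (SE 0.046, limma adjusted p 0.56), with a 95% confidence interval from -0.18 to 0.05. The mean of both probes differed by -0.22.

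The differences of the brighter Tnfsf11 probe had opposite signs in its channels, and neither passed the test. Its sample channel alone differed by -0.15 (SE 0.11, limma adjusted p 0.49) and the groups overlapped. Its reference channel differed by 0.22 (SE 0.15) after normalisation between arrays, and the groups overlapped there too. Before that normalisation, its background-subtracted reference intensity was 73.9, 39.4 and 66.8 on the B_TNF_KO arrays and 91.1, 96.1 and 85.7 on the TB_TNF_KO arrays. The reference RNA was the same pool on all arrays. Without background subtraction the difference in ratio was -0.14, which was 2.7 times smaller. The part of the reference channel in the ratio of this probe was not tested.

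**Figure D2:**
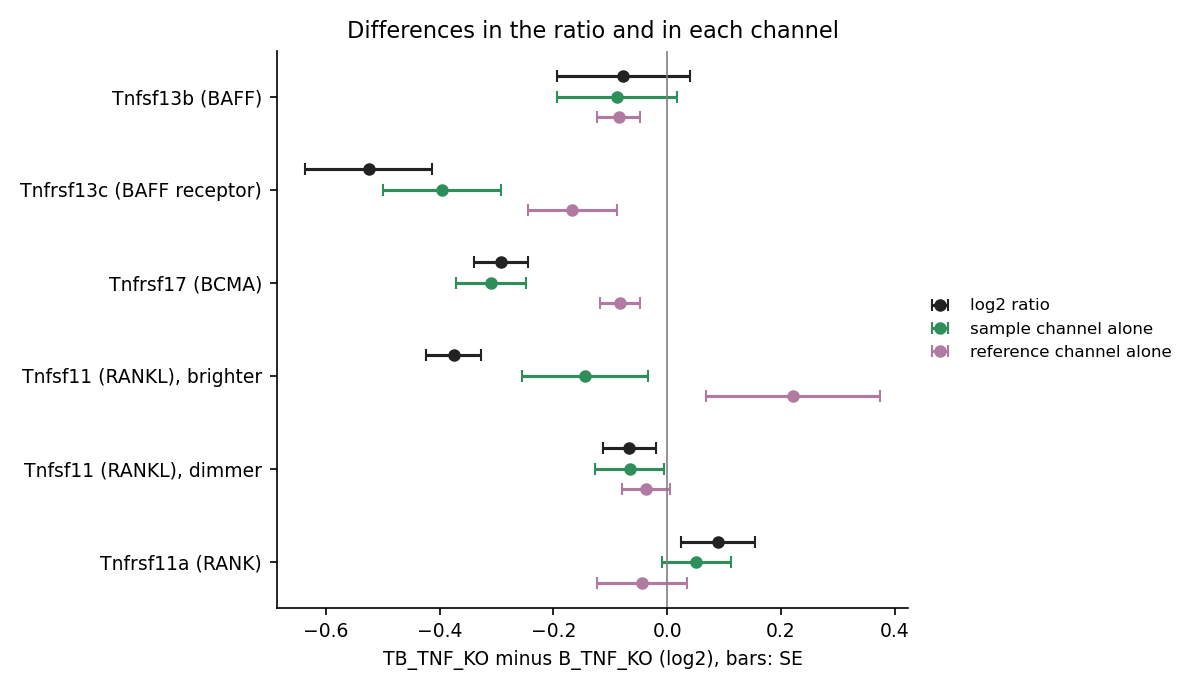
Points are differences TB_TNF_KO minus B_TNF_KO (log2, horizontal axis) with SE bars for the log2 ratio, the sample channel alone and the reference channel alone, 1 row per probe (n = 3 and 2). Tnfrsf17 keeps its difference in the sample channel (-0.31 against -0.29 in ratio), whereas the brighter Tnfsf11 probe is at -0.15 in the sample channel and 0.22 in the reference.

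Tnfrsf11a, the RANK receptor, was close to the reference in both groups. Its log2 ratio was -0.18, 0.00 and -0.03 on the B_TNF_KO arrays and -0.04, 0.04 and 0.04 on the TB_TNF_KO arrays. B_TNF_KO replicate 1 was the lowest value, and the remaining arrays of both groups lay close together. The means were -0.07 ± 0.097 (SD, n = 3) and 0.02 ± 0.022 (SD, n = 2). The difference was 0.09 (SE 0.065, limma adjusted p 0.58), with a 95% confidence interval from -0.07 to 0.25. The 3 probes of Tnfrsf11b, the decoy osteoprotegerin, differed by 0.05, -0.02 and -0.13, and none passed the test.

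RANKL and BAFF come from several cell types of a node, and markers of these cells were read on the same arrays. Over all genes tested, 11.2% were lower and 4.98% higher at an unadjusted p under 0.05 in limma. The counts here and in the next paragraph are to be read beside these shares. Among 11 innate lymphoid cell genes, 5 had an unadjusted p under 0.05 with a lower value (the smallest p were those of the IL-23 receptor Il23r at -0.21, Ccr6 at -0.30, Kit at -0.18, with other probes at -0.02 and -0.26, and the aryl hydrocarbon receptor Ahr at -0.16), and none passed. In the sample channel alone Il23r differed by -0.06, Ccr6 by 0.05, Kit by -0.02 and Ahr by -0.19. Of 10 T cell genes, 3 were lower and none passed. Of 13 reticular stromal genes, 4 were lower and 2 higher, and none passed. The cytokine Il7 was at -0.40. The collagen Col14a1 was at -0.61 in ratio and -0.12 in the sample channel alone, with a second probe at 0.02. The 2 higher genes, the chemokines Ccl21a and Ccl21b, were read by probes saturated on all 6 arrays, so no size is given for them, and an unsaturated Ccl21a probe was at 0.16. Of 11 follicular dendritic cell genes, 5 were lower and 1 higher, and the follicular B cell chemoattractant Cxcl13 passed.

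Cxcl13 fell by 1.56 (SE 0.089, limma adjusted p 0.022), and its second probe fell by 1.65. Of 10 lymphatic endothelial genes, 6 were lower and 1 passed, the hyaluronan receptor Lyve1 at -1.22 (limma adjusted p 0.0094), while a second Lyve1 probe was at -0.03. In the sample channel alone the first Lyve1 probe differed by -0.41 (limma adjusted p 0.071), and its reference channel by 0.54. Of 11 myeloid and dendritic cell genes, 5 were lower, among them the dendritic cell genes Fscn1 at -0.41 (second probe -0.18) and Ccl22 at -0.68, and none passed. Summed sample intensity did not overlap between groups for the follicular dendritic list (65170 to 69700 in B_TNF_KO, 54920 to 61780 in TB_TNF_KO) or the myeloid list (54230 to 58010 against 50150 to 51030). It overlapped for the T cell, reticular stromal, lymphatic endothelial and innate lymphoid lists. No gene of these lists was at background, and their part in the Tnfsf11 and Tnfsf13b values was not tested.

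Tnf itself was lower in TB_TNF_KO, with log2 ratios of 0.19, 0.36 and 0.49 against -0.66, -0.63 and -0.84, and groups that did not overlap. The difference was -1.09 (limma adjusted p 0.055) on its brighter probe and -0.26 on a second one. The position of these probes relative to the deletion is not known here, so they do not check the labels.

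Where the 3 lower probes stand among all probes is shown by the distribution of differences. The bulk of probes lay near 0, with a longer tail of lower values, and probes with little G and C were lower more often. At an unadjusted p under 0.05, 23.2% of probes with at most 35% GC were lower, against 2.21% of those over 55%. The Tnfrsf13c probe and the brighter Tnfsf11 probe held 38.33% GC, and 8193 probes of about that GC had a median difference of -0.03 (SD 0.15). The dimmer Tnfsf11 probe held 48.33% and the Tnfrsf11a probe 55%, where the medians were 0.01. After the log ratios were corrected for GC the 3 differences were -0.52 for Tnfrsf13c, -0.30 for Tnfrsf17 and -0.37 for the brighter Tnfsf11 probe.

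**Figure D3:**
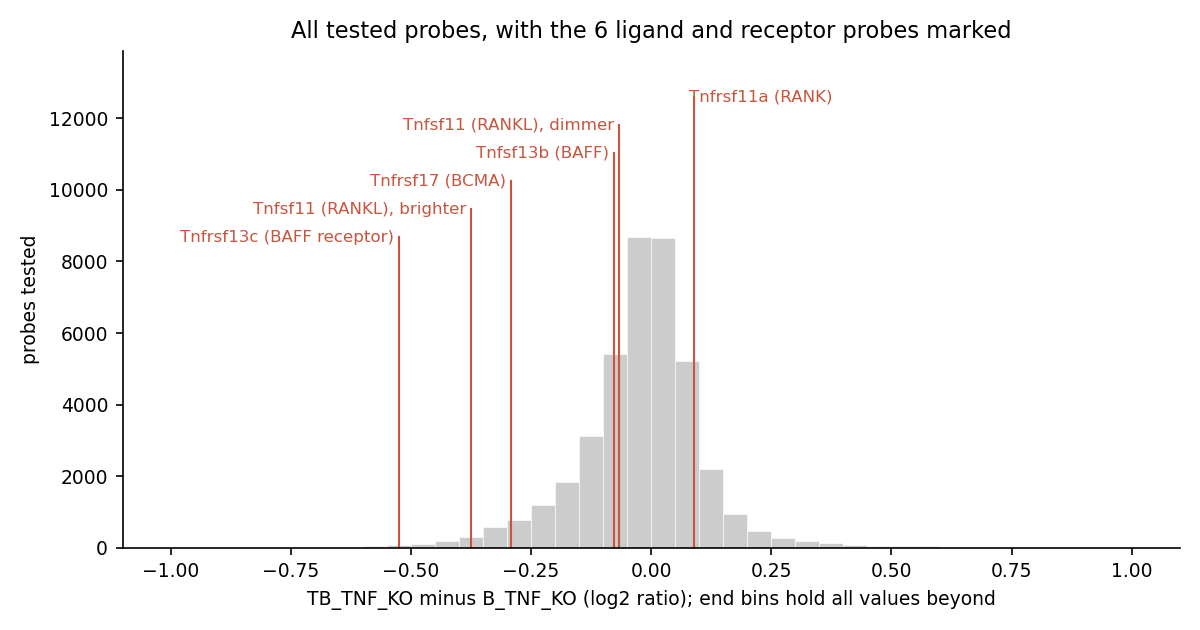
Grey bars count the 40792 tested probes by their difference TB_TNF_KO minus B_TNF_KO (log2 ratio, horizontal axis; end bins also hold the values beyond), and vertical lines mark the 6 ligand and receptor probes. Tnfrsf13c at -0.53 lies in the thin lower tail, and Tnfsf13b, the dimmer Tnfsf11 probe and Tnfrsf11a lie in the bulk.

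Genes around the 3 ligand systems were read from lists of decoys and coreceptors, receptor adaptors, NF-kB members, downstream targets and plasma cell genes. Of 81 genes listed, 64 were measured. None passed the adjusted test in limma, 11 (17.2%) were lower and 4 (6.25%) higher at an unadjusted p under 0.05. Over all 37295 genes tested, with 1 probe each, these shares were 11.2% and 4.98%. Lower values were found for 42 of the 64 genes and for 55% of all genes. With the 6 arrays counted separately, 7 of the 64 passed with lower and 2 with higher values, against 4.55% and 1.46% of all probes.

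**Figure D4:**
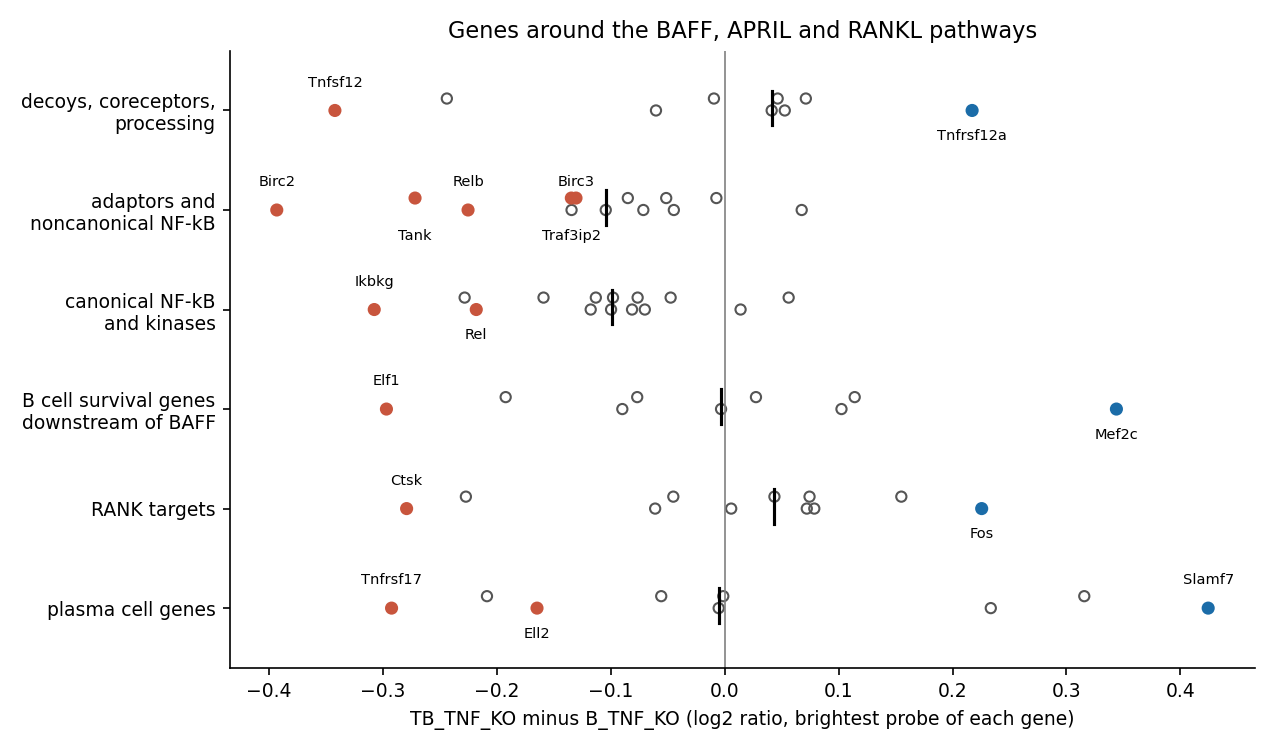
Each point is the difference TB_TNF_KO minus B_TNF_KO (log2 ratio, horizontal axis) of the brightest probe of 1 gene, by list, and the black line is the list's median. Filled points, with their gene names, had an unadjusted p under 0.05 in limma (red lower, blue higher), and none passed after adjustment. The adaptor and canonical NF-kB lists have medians of -0.10, and the other medians lie within 0.05 of 0.

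The receptor adaptors and noncanonical NF-kB genes, which carry or restrain the signal of BAFF receptor and RANK, were mostly at values below 0. Of 13 measured, 5 were lower and none higher at an unadjusted p under 0.05, 12 had values below 0, and the median difference was -0.10 against -0.01 over all genes. Birc2 (cIAP1), the ubiquitin ligase that holds NIK down, was at -0.39 (SE 0.075, adjusted p 0.082), although its second probe was at 0.01. The adaptor Tank was at -0.27, the NF-kB subunit Relb at -0.23 and the adaptor Traf3ip2 (Act1) at -0.13. Map3k14, which encodes NIK, and Traf3, the adaptor that directs its breakdown, differed by -0.04 and -0.01, and both were named after their values were seen.

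Of 14 genes of the canonical NF-kB pathway and its kinases, 2 had an unadjusted p under 0.05, both lower, none passed, and the median was -0.10. Ikbkg (NEMO), the regulatory subunit of the IkB kinase, was at -0.31, the catalytic subunit Ikbkb at -0.23, the NF-kB subunit Rel at -0.22 and the kinase Mapk14 (p38) at -0.11. Their adjusted p-values in limma were 0.14 to 0.38.

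Genes downstream of the receptors went both ways. Of 9 B cell survival and maturation genes, the transcription factor Elf1 was lower at -0.30 and the transcription factor Mef2c higher at 0.34, with a median of -0.003. Bcl2a1a, an anti-apoptotic BCL2 relative, was at -0.19 (second probe -0.03) and Mcl1, another, at 0.11. Of 11 RANK targets, the osteoclast protease Ctsk was at -0.28 in ratio and 0.01 in the sample channel alone, Fos, an AP-1 subunit, at 0.23, the cytoskeletal regulator Marcksl1 at -0.23 and the receptor Oscar at 0.07. The median of that list was 0.04.

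Of 9 decoys, coreceptors and processing genes, Tnfsf12 (TWEAK) and its receptor Tnfrsf12a (Fn14) had an unadjusted p under 0.05, in opposite directions. Tnfsf12 lies next to Tnfsf13 (APRIL) in the RefSeq gene order. Its log2 ratio was -0.34, -0.34 and -0.37 on the B_TNF_KO arrays and -0.68, -0.64 and -0.73 on the TB_TNF_KO arrays, and the groups did not overlap. The difference was -0.34 (SE 0.045, limma adjusted p 0.055) in ratio and -0.57 (limma adjusted p 0.049) in the sample channel alone. The reference channel of the Tnfsf12 probe was also lower, by -0.28. Tnfrsf12a was at 0.22 and Furin, a protease that cuts BAFF and APRIL, at -0.24.

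The promoters printed are of the 3 genes that had a lower probe. None of these probes passed the test, and the groups overlapped on the dimmer Tnfsf11 probe. Whether the genes are regulated together was not tested. The promoters were searched for motifs of factors at the end of these pathways. They are the 250 bases before the start site in RefSeq, GRCm38.p6, on the gene's strand, with TATAAA in capitals on whichever strand it was found.
Tnfrsf13c, chr15:82224381-82224630, minus strand: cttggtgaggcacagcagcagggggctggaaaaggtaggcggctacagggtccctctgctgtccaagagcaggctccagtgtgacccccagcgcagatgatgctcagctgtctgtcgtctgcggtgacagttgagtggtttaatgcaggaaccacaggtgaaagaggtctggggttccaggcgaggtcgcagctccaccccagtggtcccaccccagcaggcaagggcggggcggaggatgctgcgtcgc
Tnfrsf17, chr16:11313559-11313808, plus strand: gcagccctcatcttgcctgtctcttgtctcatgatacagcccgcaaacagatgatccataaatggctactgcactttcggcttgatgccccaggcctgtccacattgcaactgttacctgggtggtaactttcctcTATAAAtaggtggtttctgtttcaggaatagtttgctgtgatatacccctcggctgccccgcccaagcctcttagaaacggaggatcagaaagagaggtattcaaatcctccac
Tnfsf11, chr14:78308044-78308293, minus strand: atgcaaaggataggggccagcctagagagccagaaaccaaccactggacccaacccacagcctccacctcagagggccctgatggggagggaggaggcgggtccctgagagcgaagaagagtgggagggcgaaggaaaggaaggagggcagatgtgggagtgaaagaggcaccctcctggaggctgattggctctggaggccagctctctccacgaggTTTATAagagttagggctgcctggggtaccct
TATAAA was found in the windows of Tnfrsf17, 114 bases before the start site, and Tnfsf11, 32 bases before it on the opposite strand, and in 12.4% of all 32851 windows of this length. The kappa B motif of NF-kB was found in none of the 8 windows of the 7 genes and in 7.25% of all windows. The AP-1 motif TGANTCA was found in 1 window each of Tnfsf13b and Tnfsf13 and in 6.75% of all windows. Both strands were searched, and no match of one motif overlapped a match of another. A match is a run of letters only, and its absence says nothing about the factor.

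The genes whose log2 ratios followed each brightest probe most closely over the 6 arrays were found among 11995 genes with a symbol. They were Ciao2a, Evl and Hace1 for Tnfrsf13c (Pearson r 0.999, 0.996 and 0.995), and Qdpr, Sytl4 and Ift27 for Tnfrsf17 (r 0.997, 0.997 and 0.994). For Tnfsf11 they were Nudt8, Slc6a20a and Serpina1d (r 0.998, 0.995 and 0.995). For Tnfsf13b they were Snrpa, Rbms2 and Gnai2 (r 0.997, 0.989 and 0.988), and for Tnfrsf11a they included Cars and Veph1 (r 0.990 and 0.989). An r above 0.95 was reached by 398 genes with Tnfrsf13c, 405 with Tnfrsf17 and 270 with Tnfsf11, against 52 with Tnfsf13b and 28 with Tnfrsf11a. The 6 arrays share the reference RNA and hold both groups, so these values describe the arrays only.

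Arrays that stood apart were left out in turn. The groups of the 3 lower probes did not overlap, so their direction is fixed for any choice of arrays. Only the sizes are given. On replicate 3 of each group, the arrays without pancreas transcripts, the differences were -0.49 for Tnfrsf13c, -0.24 for Tnfrsf17 and -0.33 for the brighter Tnfsf11 probe. On replicates 1 and 2 they were -0.61, -0.34 and -0.42. Without TB_TNF_KO arrays 1 and 2, which left 1 sample in that group assumed to vary like the other, they were -0.40, -0.26 and -0.32, with adjusted p-values of 0.28 to 0.42 in limma. Tnfsf13b was at 0.025 without B_TNF_KO replicate 2, its highest array.

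**Figure D5:**
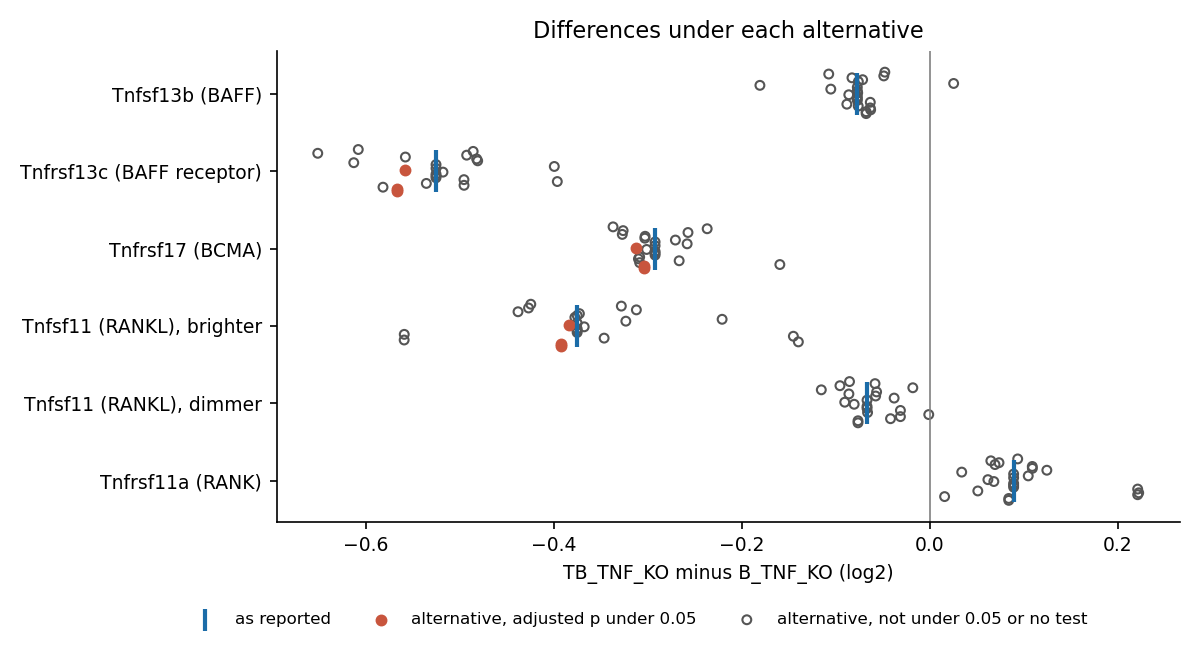
Each point is the difference TB_TNF_KO minus B_TNF_KO (log2, horizontal axis) of 1 probe under 1 alternative way of processing, and blue bars mark the values as reported. Filled points had an adjusted p under 0.05. They occur for Tnfrsf13c, Tnfrsf17 and the brighter Tnfsf11 probe, only in fits that count the 6 arrays separately.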

How the data were processed

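Scans were processed by the authors in Agilent Feature Extraction A.7.5.1, per the file headers. Each deposited scanner file holds, per spot, the intensity and local background of either channel and their log10 ratio. The deposited series table holds log10 values of unstated scaling. Mean intensities were background corrected with normexp (offset 50) and loess-normalised array by array, with control spots at weight 0, using limma 3.58.1 under R 4.3.3. Control spots and 228 outlier spots were dropped. Probes well above background in the sample channel on at least 3 arrays were kept, 40792 of 41006. Of 41034 spots, 15303 were named by accession through RefSeq (GRCm38.p6), and others kept the name in the file. Probes were compared with lmFit and eBayes. A list used the brightest probe of each gene. Members and lists were chosen with earlier results of these data known. Text names every member and, per list, up to 4 genes with the smallest p, and genes alike in pattern were the 3 with the highest r. Some genes are not reported here.

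Deviations of samples with the same replicate number in the titles correlated at 0.134, 0.525 and 0.621 for numbers 1 to 3. The numbers were used to pair the samples only in the alternative fits with the replicate block, and the reported fit did not pair them. The fit with the replicate block is printed where it changes a call. It counts the near-identical TB_TNF_KO arrays as separate partners, which cannot hold if they carried the same RNA. In that case its p-values are too small. Labels do not say that pools came from separate litters, so p-values measure the spread between these samples. The scripts were tested on simulated data. Figures were drawn with matplotlib 3.10.9 (Python 3.11.15).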

Additional observations from a re-analysis of the deposited data

How the results depend on the processing

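Of the 6 ligand and receptor probes, 3 passed when every one of the 6 arrays was a sample, 3 with the replicate block and 3 with GC correction and the replicate block, against 0 as reported. In these fits Tnfrsf13c, Tnfrsf17 and the brighter Tnfsf11 probe had adjusted p-values of 0.021 to 0.029 in limma. In the same order they were 0.19, 0.11 and 0.35 without background subtraction and 0.28, 0.083 and 0.087 with an intensity trend. Of the 64 pathway genes, 9 passed with 6 arrays (6.01% of all probes in that fit), 8 with the replicate block (8.01%), 7 with GC correction and the block (7.09%), 2 with the sample channel alone (0.99%) and 1 with an intensity trend (1.14%), against 0. The cause was not tested. Fits with 6 arrays or the replicate block count TB_TNF_KO arrays 1 and 2 as separate samples, so their p-values are too small if these carried the same RNA. The sample channel and intensity trend fits had 5 samples. With each replicate left out in turn, the count of probes and of pathway genes past the threshold was 0 in every fit. The Tnfsf13b difference then ran from -0.18 to 0.025 and was reversed to 0.025 without B_TNF_KO replicate 2. Over the alternatives tried, the replicates 1 and 2 alone being added after the data were seen, differences ran from -0.65 to -0.40 for Tnfrsf13c, -0.34 to -0.16 for Tnfrsf17 and -0.56 to -0.14 for the brighter Tnfsf11 probe. They ran from -0.12 to -0.001 for the dimmer probe and 0.02 to 0.22 for Tnfrsf11a. The number of arrays limits the precision.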
